A study of Bos taurus with 48 samples.

Results

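Inhibins and activins are dimeric hormones of the TGF-beta superfamily, and their transcripts were followed here between the bovine oocyte and its cumulus cells through 4 genes: the subunit genes INHA (ENSBTAG00000009972) and INHBA (ENSBTAG00000002912) and the receptor genes ACVR1 (ENSBTAG00000011909) and ACVR2B (ENSBTAG00000018105). They were taken by identifier, with no threshold on their values, from the 24616 genes of the unfiltered table of FPKM (fragments counted per unit of transcript length and of library size), in all 48 libraries. The libraries come from 16 cumulus-oocyte complexes (COCs) of Bos taurus, aspirated from slaughterhouse ovaries. Each COC was separated into the oocyte, the cumulus cells nearest to it (innerCCs) and the outer cumulus layers (outerCCs), with 1 SMART-seq2 library of polyA+ RNA from each. No treatment, genotype or age separates the groups, and the labels do not say which COCs came from the same cow, so p-values measure the spread between COCs. Gene symbols come from identifier and symbol pairs that the study lists.

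INHA encodes the alpha subunit found in inhibins, whereas INHBA encodes the beta A subunit, which pairs with alpha to give inhibin A and with itself to give activin A. In the ovary these subunits are products of granulosa cells and their cumulus descendants, and inhibin from the follicle restrains the release of follicle-stimulating hormone by the pituitary. Activin binds a type II receptor such as the product of ACVR2B, which then activates a type I receptor and through it the SMAD proteins. ACVR1 is a type I receptor best known for carrying signals of bone morphogenetic proteins.

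INHA and INHBA were cumulus transcripts, ACVR1 was an oocyte transcript, and ACVR2B was present at low and variable levels in every sample type. In outerCCs the mean INHA level was 1602 ± 904 FPKM (SD, n = 16) and the mean INHBA level was 584 ± 457 FPKM. In oocytes ACVR1 averaged 42.5 ± 15.4 FPKM, against 1.66 ± 1.99 FPKM in outerCCs. ACVR2B averaged 3.73 ± 5.47 FPKM in oocytes, 3.74 ± 7.80 FPKM in innerCCs and 3.94 ± 2.62 FPKM in outerCCs.

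**Figure D1:**
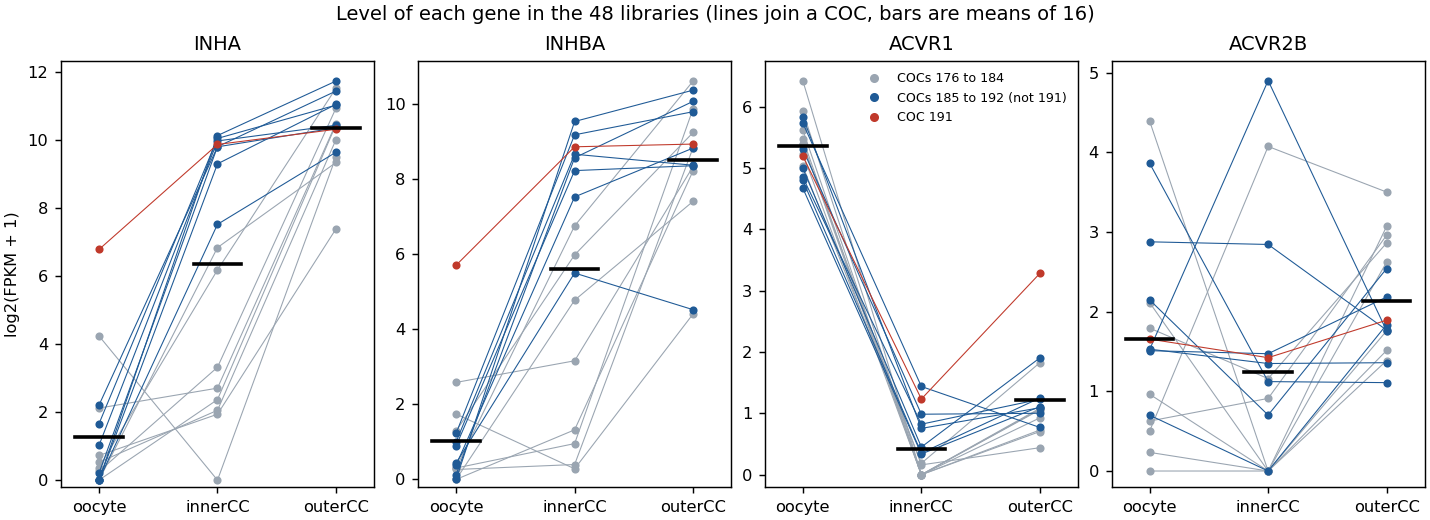
Level of INHA, INHBA, ACVR1 and ACVR2B as log2(FPKM + 1) in oocyte, innerCC and outerCC libraries, each line joining the 3 libraries of 1 COC and each black bar marking the mean of 16. INHA and INHBA are high in outerCCs, ACVR1 is high in oocytes, and the innerCC libraries of COCs 176 to 184 (grey) lie below those of COCs 185 to 192 (blue, with COC 191 in red) for INHA in every case.

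Some libraries stood apart, and the results that rest on them are given with and without them. The tables hold no fragment counts, and the study gives them only as means per sample type, so libraries were compared by genes detected rather than by depth. The number of genes over 0.5 FPKM ranged from 8525 to 11340 in oocytes and from 9054 to 11851 in outerCCs. In innerCCs it ranged from 648 to 2639 in the 8 COCs numbered 176 to 184 and from 5876 to 10295 in the 8 COCs numbered 185 to 192, and the labels give no reason for this split. The summed FPKM of a library also varied, from 18013 to 703237 in innerCCs and from 161294 to 696268 in outerCCs. In COC 191, RNA of each compartment was also seen in the other's library. Its outerCC library held 350 FPKM summed over 8 oocyte markers, or 23.8% of the level in its own oocyte, while in the other COCs this share was at most 4.23%. Its oocyte library held 13.4% of the level in its outerCCs, summed over the 2093 genes detected in outerCCs and not in oocytes, against at most 9.52% in the other COCs (COC 181).

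The sample labels were checked against marker lists. All 8 oocyte markers that could be matched, of 11 listed, were higher in oocytes than in outerCCs, from NOBOX (log2 fold change 2.70) to GDF9 (8.14). Symbols came from the study's lists of genes specific to a sample type or in ligand-receptor pairs, both drawn from these data. A marker could thus be matched because of where it was high, so the count of 8 is not independent support for the labels. In innerCCs these 8 markers summed to between 0.227 and 86.4 FPKM, the highest in COC 190. Of the cumulus and granulosa list only CYP19A1, the aromatase, and CD44 could be matched. CYP19A1 averaged 8.55 FPKM in outerCCs and 0.117 FPKM in oocytes, whereas CD44 averaged 0.0796 FPKM in outerCCs and 2.65 FPKM in oocytes. Of the endothelial list only VWF was matched, at 3.59 FPKM in oocytes and 0.107 FPKM in outerCCs, and 0 of the 3 theca and 0 of the 4 blood and immune markers could be matched.

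INHA in outerCCs ranged from 167 FPKM in COC 180 to 3430 FPKM in COC 187, with a median of 1402 FPKM. This placed it at rank 34 of all genes by mean FPKM in outerCCs. In innerCCs it ranged from 0 FPKM in COC 181 to 1128 FPKM in COC 187, with a median of 149 FPKM, and in oocytes from 0 to 109 FPKM, with a median of 0.366 FPKM. The oocyte libraries all lay below all outerCC libraries, with 5 of the 16 oocytes at 0 and 7 over 0.5 FPKM. The highest oocyte level was that of COC 191, and the next were 18.0 FPKM in COC 181 and 3.61 FPKM in COC 185. Without COC 191 the oocyte mean fell from 8.71 ± 27.2 to 1.99 ± 4.58 FPKM (SD, n = 15).

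INHBA followed the same order of sample types. In outerCCs it ranged from 20.3 FPKM in COC 180 to 1576 FPKM in COC 176, with a median of 458 FPKM, and COC 192 was also low, at 22.0 FPKM. In innerCCs it ranged from 0.217 to 745 FPKM, with a median of 84.9 FPKM. In oocytes it ranged from 0 to 51.4 FPKM, with a median of 0.328 FPKM, and 3 oocytes were at 0. The oocyte and outerCC ranges overlapped through COC 191 alone, since its oocyte was above the outerCCs of COCs 180 and 192, and the next oocyte was at 5.01 FPKM. Without COC 191 the oocyte mean of INHBA fell from 4.05 ± 12.7 to 0.895 ± 1.33 FPKM.

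ACVR1 in oocytes ranged from 24.5 FPKM in COC 188 to 85.0 FPKM in COC 184, with a median of 39.8 FPKM. It was the steadiest of the 4 genes in its main compartment, with a coefficient of variation of 0.362 in oocytes, against 0.564 for INHA and 0.784 for INHBA in outerCCs. These coefficients come from different sample types. The summed FPKM of a library ranged from 367112 to 657753 in oocytes and from 161294 to 696268 in outerCCs. In outerCCs ACVR1 ranged from 0.357 to 8.74 FPKM, with a median of 1.11 FPKM, and no outerCC library reached the lowest oocyte. The highest outerCC library was that of COC 191, and the next was 2.75 FPKM in COC 192. In innerCCs ACVR1 ranged from 0 to 1.71 FPKM, with a median of 0.201 FPKM. The 6 innerCC libraries at 0 were all from COCs 176 to 184, and the 5 over 0.5 FPKM were all from COCs 185 to 192.

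ACVR2B had no such order. It ranged from 0 to 20.0 FPKM in oocytes, with a median of 1.88 FPKM, and 2 oocytes stood above the others, COC 180 at 20.0 FPKM and COC 190 at 13.6 FPKM. In innerCCs it ranged from 0 to 28.9 FPKM, with a median of 1.03 FPKM, where COC 187 at 28.9 FPKM and COC 176 at 15.9 FPKM were highest and 6 libraries were at 0. In outerCCs it ranged from 1.16 to 10.3 FPKM, with a median of 2.65 FPKM, and all 16 libraries were over 0.5 FPKM. The ranges of the 3 sample types overlapped, and the highest COC was a different one in each.

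Comparing oocytes with outerCCs asks which compartment of a COC holds the message for ligand and for receptor. Sample types were compared with limma on log2(FPKM + 1), with Benjamini-Hochberg adjustment over the 12428 genes detected in at least 1 sample type, and a gene was called at an adjusted p under 0.01. This scale understates the change of genes near 0 FPKM. In the comparison 3 of the 4 genes were called, when 77.7% of all genes tested were. The ranges of the 16 oocyte and 16 outerCC libraries did not overlap for 2 of the 4, INHA and ACVR1, and this held for 22.4% of all genes tested.

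INHA was lower in oocytes by a log2 fold change of -9.11 (SE 0.498, limma adjusted p = 2.12e-18), and lower in the oocyte in 16 of 16 COCs. The outerCC mean was 184 times the oocyte mean, and 817 times without COC 191. INHBA was lower in oocytes by -7.50 on the log2 scale (SE 0.533, limma adjusted p = 2.39e-15), also in 16 of 16 COCs. Its outerCC mean was 144 times the oocyte mean, and 659 times without COC 191. As outerCC samples hold many cells and an oocyte sample holds 1, the FPKM compare shares of each library's RNA, and in such bulk samples fewer cells of a type and less RNA per cell cannot be told apart.

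ACVR1 was higher in oocytes by a log2 fold change of 4.15 (SE 0.205, limma adjusted p = 1.48e-19), in 16 of 16 COCs. Its oocyte mean was 25.6 times the outerCC mean, and 36.1 times without COC 191. Exact sign-flip permutation tests over the 16 COCs gave p = 3.05e-05, the smallest they can give, for INHA, INHBA and ACVR1 alike. ACVR2B differed by -0.48 (95% interval -1.16 to 0.20, limma adjusted p = 0.180) and was higher in the oocyte in 5 COCs and lower in 11. When each library was scaled to the same 75th percentile, the median change of all genes moved from 0.25 to -0.24, the genes called higher and lower went from 5394 and 4260 to 4499 and 5497, and ACVR2B was called lower in oocytes at -0.95 (limma adjusted p = 0.00956). INHA, INHBA and ACVR1 kept their direction and their call under that scaling, at -9.60, -7.98 and 3.63 in turn.

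The levels in COC 191 moved with the markers of the other compartment. INHA in its oocyte was 8.54% of the level in its outerCCs, against at most 2.46% in any other COC (COC 181). INHBA in its oocyte was 10.5% of its outerCC level, and only COC 180 was higher, at 11.6%, where the outerCC level was the lowest of the 16. Summed over the genes detected in outerCCs and not in oocytes, the oocytes of COCs 180, 181 and 190 held 9.07%, 9.52% and 7.80% of their outerCC levels, against 13.4% in COC 191. ACVR1 in the outerCCs of COC 191 was 24.5% of the oocyte level, against 0.872% to 8.88% in the other COCs. GDF9, a growth factor secreted by the oocyte, was at 186 FPKM in the same outerCC library and at 5.02 FPKM or below in the rest. The part of the other compartment's RNA in the 4 genes' values was not tested, and the log2 fold changes without COC 191 were -9.48 for INHA, -7.79 for INHBA and 4.30 for ACVR1.

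**Figure D2:**
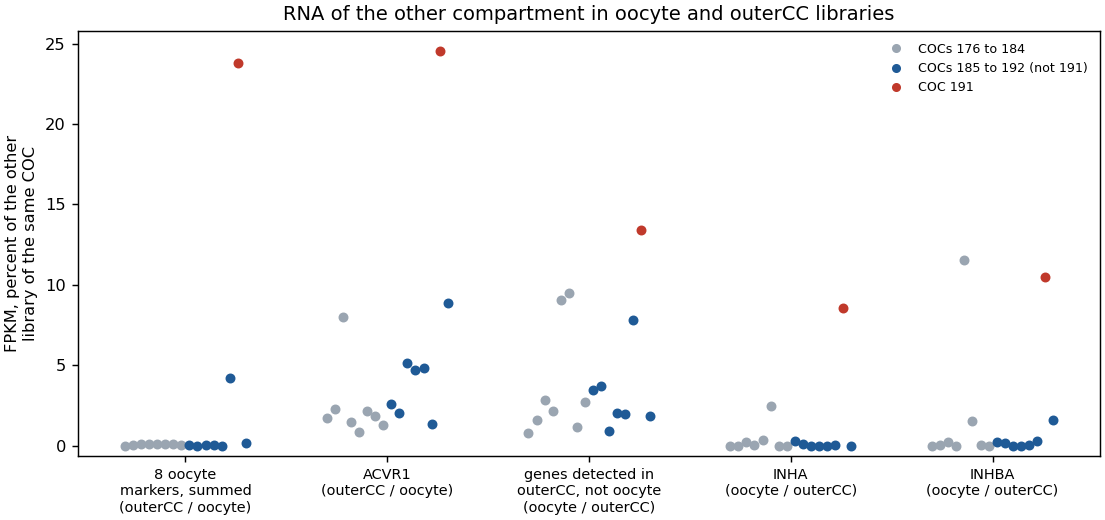
FPKM in the oocyte or outerCC library as a percent of the other library of the same COC, for 8 summed oocyte markers, ACVR1, the summed genes detected in outerCCs and not in oocytes, INHA and INHBA, with 1 point per COC. COC 191 (red) is highest in the first 4 columns, from 8.54% for INHA to 24.5% for ACVR1, and is second to COC 180 for INHBA.

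Comparing oocytes with innerCCs puts the same question to the cells that touch the oocyte. INHA was lower in oocytes than in innerCCs by a log2 fold change of -5.11 (SE 0.996, limma adjusted p = 2.68e-05), and INHBA by -4.59 (SE 0.884, limma adjusted p = 2.27e-05). ACVR1 was higher in oocytes by 4.95 (SE 0.176, limma adjusted p = 2.30e-22). These were 3 of the 4 genes, when 67.8% of all genes tested were called. ACVR2B differed by 0.41 (95% interval -0.55 to 1.36, limma adjusted p = 0.437).

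Within the COCs whose innerCC libraries held more genes, 185 to 192, the subunits stood further apart. INHA there ranged from 183 to 1128 FPKM in innerCCs, around a median of 919 FPKM, and its difference from oocytes was -8.08 (limma adjusted p = 1.78e-08). INHBA ranged from 44.4 to 745 FPKM, around a median of 393 FPKM, and differed by -7.04 (limma adjusted p = 3.69e-08). ACVR1 ranged from 0.264 to 1.71 FPKM in these innerCCs, and was higher in oocytes by 4.38 (limma adjusted p = 9.20e-12). The calls were again 3 of 4, when 62.8% of all genes tested were called. In COCs 176 to 184 the innerCC medians were 4.85 FPKM for INHA and 4.73 FPKM for INHBA, and the differences from oocytes, -2.15 and -2.14, were not called (limma adjusted p = 0.0421 and 0.0469). In that fit limma called 9183 of the 12428 genes tested higher in oocytes and 21 lower, and the median change of all genes was 2.04.

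Comparing innerCCs with outerCCs asks whether the subunits differ between layers of cumulus cells. Over all 16 COCs INHA was lower in innerCCs by a log2 fold change of -3.99 (SE 0.937, limma adjusted p = 0.000320), INHBA by -2.91 (SE 0.935, limma adjusted p = 0.00522) and ACVR1 by -0.80 (SE 0.205, limma adjusted p = 0.000773). The call of INHBA was lost without COC 177, 179, 181 or 183, with -2.76 to -2.51 on the log2 scale. ACVR2B differed by -0.89 and was not called (limma adjusted p = 0.0447), and was called without COC 187, at -1.15 (limma adjusted p = 0.00354). So 3 of the 4 genes were called, when 77.4% of all genes were, and the median change of all genes was itself -1.42. Gene number over 0.5 FPKM moved with this comparison, being lower in many innerCC libraries. With that number as a covariate the differences became 0.31 for INHA, 0.73 for INHBA and -0.18 for ACVR1, and none was called, when limma called 4 of the 12428 genes in this fit. Within COCs 176 to 184, whose innerCC libraries held few genes, INHA differed by -6.79 (limma adjusted p = 3.69e-06), INHBA by -5.42 (limma adjusted p = 0.000271) and ACVR1 by -0.94 (limma adjusted p = 2.26e-05). These 3 of the 4 genes were called there, when 80.4% of all genes tested were and the median change of all genes was -2.07.

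Within COCs 185 to 192 none of the 4 genes was called by limma, when 1.53% of all genes tested were. INHA ranged from 183 to 1128 FPKM in innerCCs and from 803 to 3430 FPKM in outerCCs, with COC 187 highest and COC 192 lowest in both layers. It was lower in innerCCs in 8 of 8 COCs (exact sign-flip permutation p = 0.0078125, two-sided, the smallest 8 COCs allow), by -1.20 on the log2 scale (limma adjusted p = 0.0304). The median of all genes was -0.71 in the same libraries, and after scaling to the same 75th percentile the INHA difference was -0.18. INHBA differed by -0.40 (limma adjusted p = 0.673) and was lower in innerCCs in 6 of 8 COCs, ACVR1 differed by -0.66 (limma adjusted p = 0.103), and ACVR2B by -0.08 (limma adjusted p = 0.910). At an unadjusted p under 0.05, limma passed 1 of the 4 genes, INHA, when it passed 48.4% of all genes tested.

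The ratio of INHA to INHBA within 1 library does not depend on how that library is scaled, and FPKM allow for the length of each transcript. Over the 15 COCs with both genes above 0 (COC 181 had INHA at 0 in innerCCs), the ratio had a median of 3.07 in outerCCs (range 1.88 to 36.4) and of 2.49 in innerCCs (range 0.0887 to 13.1). The log2 ratio in innerCCs differed from that in outerCCs by -0.55 ± 1.73 (SD), a difference smaller than the spread between COCs (11 of 15 lower, exact sign-flip permutation p = 0.254). Within COCs 185 to 192, however, the ratio was lower in innerCCs in 8 of 8 COCs, with medians of 2.42 and 3.24, by a log2 difference of -0.80 ± 0.968 (exact sign-flip permutation p = 0.0078125). COC 192 had the outerCC ratio of 36.4, and without it the difference was -0.47 ± 0.227, lower in 7 of 7 COCs (exact sign-flip permutation p = 0.0156, the smallest 7 COCs allow). In the other set the ratio was lower in 3 of 7 COCs and differed by -0.26 ± 2.40 (exact sign-flip permutation p = 0.828). Whether the sets differ in this respect was not tested.

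The median ratio of the receptors turned over between compartments. ACVR1 exceeded ACVR2B in every oocyte in which both were above 0, with a median ratio of 16.6 (range 2.04 to 339), whereas in outerCCs the median ratio was 0.379 (range 0.0608 to 3.22). In the outerCCs of COCs 191 and 192 ACVR1 also exceeded ACVR2B, at ratios of 3.22 and 1.07. The oocyte ratio of 339 was that of COC 183, where ACVR2B was at 0.176 FPKM, under the 0.5 FPKM used for detection. The log2 ratio was higher in the oocyte by 5.83 ± 2.59 (SD), in 15 of 15 COCs (exact sign-flip permutation p = 6.10e-05, the smallest 15 COCs allow). Without COC 191, whose outerCC ratio of 3.22 was the highest, the difference was 6.08 in 14 of 14 COCs. COC 181 was left out because its oocyte had ACVR2B at 0.

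**Figure D3:**
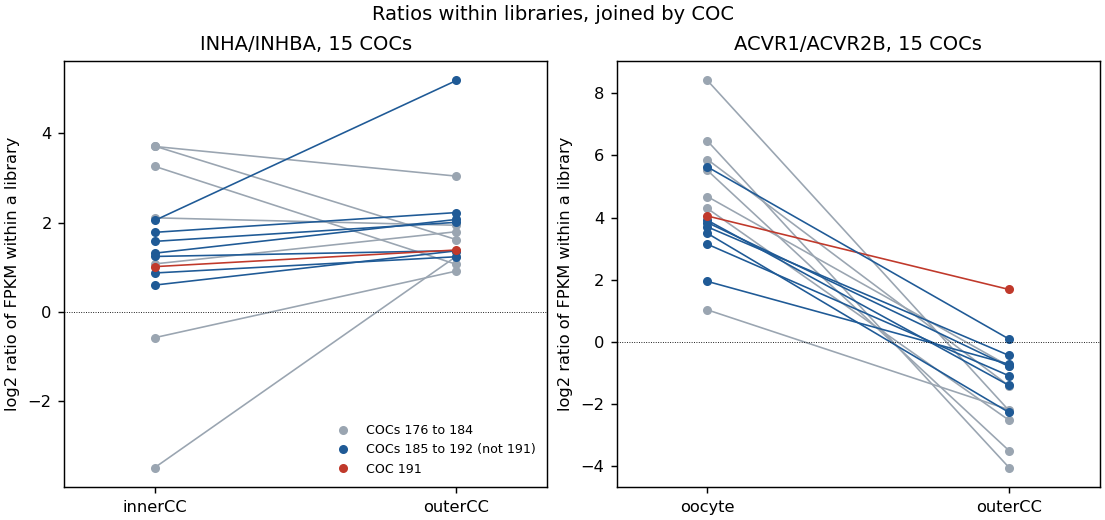
Log2 ratio of FPKM within a library, joined by COC, for INHA over INHBA in innerCCs and outerCCs (left) and ACVR1 over ACVR2B in oocytes and outerCCs (right), with 15 COCs in each panel. On the left the blue and red lines (COCs 185 to 192) all rise from innerCC to outerCC while the grey lines cross, and on the right all 15 lines fall from oocyte to outerCC.

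The study asked whether transcripts of a COC vary together between its cells, and 6 relations among the 4 genes were computed over the 16 COCs on log2(FPKM + 1), with 100000 permutations and Benjamini-Hochberg adjustment over the 6. INHA and INHBA rose and fell together in outerCCs, with Pearson's r = 0.872 and Spearman's rho = 0.912 (permutation adjusted p = 6e-05 for each, from the smallest p the permutations can give). Without COCs 180 and 187, the farthest from the median of INHA, r was 0.772. It was 0.875 within COCs 185 to 192 and 0.988 within COCs 176 to 184 (adjusted permutation p = 0.0058 and 0.000446). Spearman's rho was 0.810 within COCs 185 to 192, past no threshold, and 0.976 within COCs 176 to 184 (permutation adjusted p = 0.131 and 0.00238). Both genes are measured in the same library, and INHA had r = 0.831 with the log2 sum of FPKM of that library, INHBA 0.545.

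**Figure D4:**
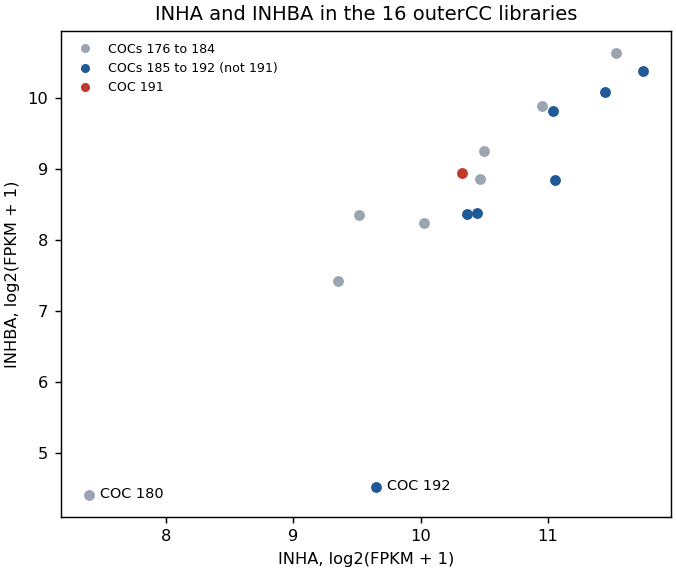
INHA (horizontal) against INHBA (vertical) in the 16 outerCC libraries, both as log2(FPKM + 1), coloured by set of COCs. The points lie along 1 rising band with r = 0.872, COC 180 is lowest for both genes, and COC 192 is low in INHBA for its level of INHA.

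No relation between a subunit in outerCCs and a receptor in the oocyte reached an adjusted p under 0.05. Pearson's r was -0.34 for INHA with ACVR1, -0.37 for INHA with ACVR2B, -0.13 for INHBA with ACVR1 and -0.30 for INHBA with ACVR2B, with permutation adjusted p from 0.373 to 0.63. Spearman's rho was -0.42, -0.16, -0.31 and -0.17 in the same order, with permutation adjusted p from 0.318 to 0.548. Without the 2 COCs farthest from the median of the subunit, r became -0.41, 0.14, -0.54 and -0.13. Within COCs 176 to 184 r was -0.15 for INHA with ACVR1, -0.75 for INHA with ACVR2B, -0.19 for INHBA with ACVR1 and -0.79 for INHBA with ACVR2B (permutation adjusted p = 0.698, 0.0974, 0.698 and 0.0974), and within COCs 185 to 192 it was -0.33, 0.05, -0.02 and 0.33 (permutation adjusted p = 0.643, 0.964, 0.964 and 0.643). The 2 receptors in oocytes had r = 0.244 and rho = 0.235 (permutation adjusted p = 0.432 and 0.548), and 0.250 without the 2 farthest COCs. Within COCs 185 to 192 their r was 0.825 (permutation adjusted p = 0.0344) with rho = 0.738 (permutation adjusted p = 0.137), and within COCs 176 to 184 it was 0.153, with permutation adjusted p = 0.698.

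The genes whose levels were most like each member's are given as a description, over the 16 libraries of the sample type where that member was highest on average. For INHA in outerCCs they were ENSBTAG00000007348 (r = 0.966), the glycolytic enzyme gene ALDOA (r = 0.965) and ENSBTAG00000026246 (r = 0.965), among 10458 genes whose median r with INHA was 0.517. For INHBA they were IGFBP4, a binding protein of insulin-like growth factors (r = 0.968), CD72 (r = 0.964) and the alanine aminotransferase gene GPT (r = 0.963), with a median r of 0.319. For ACVR1 in oocytes they were ENSBTAG00000007356 (r = 0.887), ENSBTAG00000026829 (r = 0.840) and ENSBTAG00000011150 (r = 0.829), among 10326 genes with a median r of -0.0785. For ACVR2B in outerCCs they were ENSBTAG00000019443 (r = 0.939), the Polycomb gene PCGF2 (r = 0.898) and ENSBTAG00000007220 (r = 0.896), with a median r of 0.234. All genes of a sample type share its libraries and their depth, so these values carry no p.

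Around the 4 genes, 25 of the 53 other genes on the pathway lists could be matched to an identifier. The lists used for matching were drawn from expression in these data, and all 25 matched genes were also tested. The shares over all genes given below are therefore not a like comparison. Among the unmatched were the activin receptor genes ACVR1B and ACVR1C, FST of the binding proteins, and all 5 co-receptors. Between oocytes and outerCCs 16 were higher in oocytes, when 43.4% of all genes tested were, 5 were lower, when 34.3% were, and 4 were not called, with a median log2 fold change of 0.64 against 0.25 over all genes tested. Without COC 191 these counts were 15, 5 and 5, when 5319 of the 12428 genes tested were higher and 4242 lower. Within COCs 185 to 192 they were 11, 4 and 10, when 4754 genes were higher and 3450 lower. With 75th percentile scaling they were 11, 5 and 9, when 4499 genes were higher and 5497 lower. Among the ligand subunits INHBB, the beta B subunit, was lower in oocytes by -2.43 (limma adjusted p = 2.54e-11), with a mean of 5.96 ± 4.62 FPKM in outerCCs and 0.0505 ± 0.143 FPKM in oocytes, so that INHBB lay on the same side as INHA and INHBA at a far lower level. The other type II receptor gene, ACVR2A, averaged 2.18 ± 0.672 FPKM in oocytes and 1.95 ± 0.802 FPKM in outerCCs (log2 fold change 0.12, limma adjusted p = 0.428), and like ACVR2B was not called. Of the binding proteins and inhibitors, FSTL1, a secreted follistatin-like protein, was lower in oocytes (-1.09), and BAMBI, a decoy receptor, differed by -0.05 and was not called.

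Downstream of the receptors, 4 of 6 listed SMAD genes that carry the signal were matched, SMAD3 and SMAD4 not being among them. Of these, 3 of 4 were higher in oocytes, when 43.4% of all genes tested were. After 75th percentile scaling 1 of 4 was higher, when 4499 of the 12428 genes tested were. SMAD1, which relays signals of ACVR1 and other bone morphogenetic protein receptors, had the largest change of the 3 and kept its call under scaling (2.25 in FPKM and 1.69 scaled). SMAD2, a mediator of activin signals, differed by 0.41 and was not called (limma adjusted p = 0.0740), at 138 ± 32.7 FPKM in oocytes and 113 ± 49.3 FPKM in outerCCs. Among the inhibitors of this step, SMURF1, a ubiquitin ligase, was higher in oocytes by 2.71, SMAD6 was higher by 0.57, and SKIL, a repressor of SMAD transcription, was lower by -2.35. The convertases cut the precursors of these ligands, and of 3 matched FURIN (-0.56) and PCSK7 (-1.66) were lower in oocytes while PCSK5 was higher (0.61, not called after scaling). Of the related genes, all 5 matched receptors (6 listed) and 5 of the 6 matched ligands (13 listed) were higher in oocytes, when 43.4% of all genes tested were. BMPR1B was higher by 2.82, BMPR1A by 2.55, TGFBR1 by 1.68, TGFBR2 by 0.76 and BMPR2 by 0.65, the last not called after scaling. The ligands were led by the oocyte factors GDF9 (8.14) and BMP15 (7.87), followed by BMP4 (2.27), BMP6 (1.36) and NODAL (0.64, not called after scaling).

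**Figure D5:**
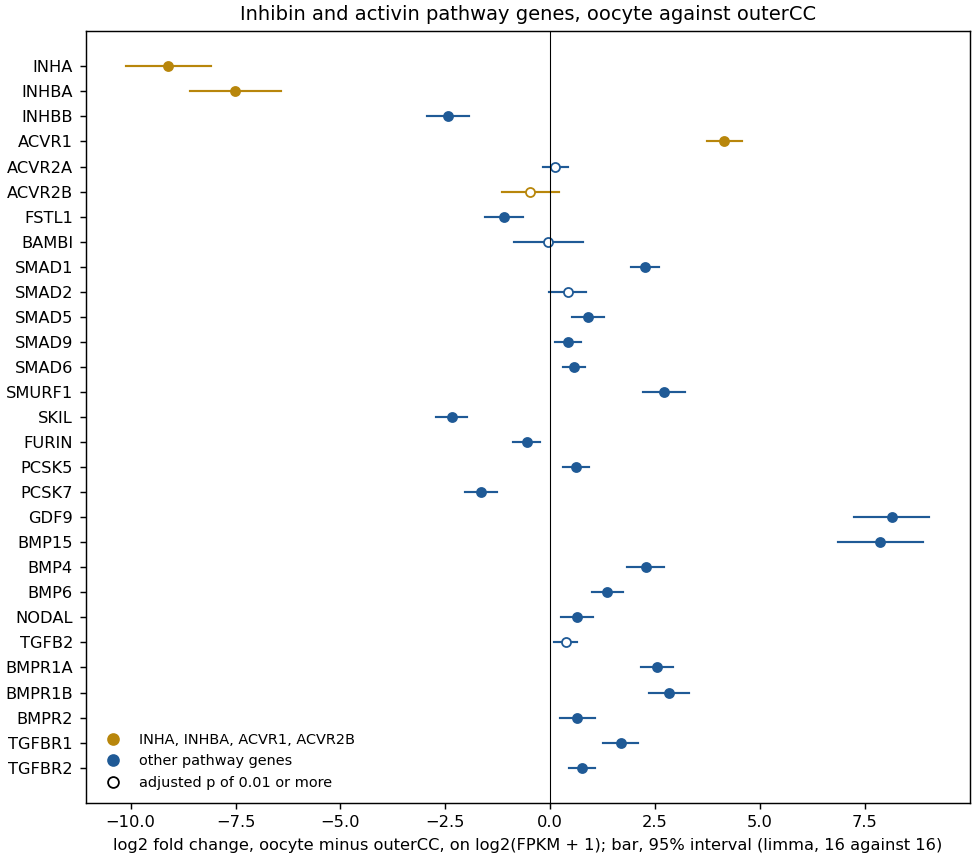
Log2 fold change of oocytes over outerCCs with its 95% interval (limma, 16 against 16 libraries) for the 4 genes (gold) and the 25 other matched pathway genes (blue), filled where the adjusted p was under 0.01. INHA (-9.11) and INHBA (-7.50) lie farthest to the left, GDF9 and BMP15 farthest to the right, and ACVR1 (4.15) is the highest of the matched receptors. The activin receptor genes ACVR1B and ACVR1C were not matched.

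Against innerCCs, 20 of the 25 other genes were higher in oocytes, when 63.2% of all genes tested were, and 2 (INHBB at -0.66 and SKIL at -0.91) were lower, when 4.53% were. The other 3 were not called, and the median was 1.26 against 1.47 over all genes. Within COCs 185 to 192 the counts were 16, 2 and 7, when 6061 of the 12428 genes tested were higher and 1747 lower. With 75th percentile scaling in the same COCs they were 11, 5 and 9, when 3575 genes were higher and 3392 lower. Between the cumulus layers limma called 0 of the 25 higher and 14 lower in innerCCs over the 16 COCs, when it called 77.4% of all genes, each of them lower, with a median of -0.65 against -1.42 over all genes and no difference above 0. Within COCs 185 to 192 limma called 0 of the 25, and 6 of the 25 had an unadjusted p under 0.05, each lower in innerCCs, when 48.4% of all genes tested had such a p and were lower.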

How the data were processed

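Reads were aligned by the authors to UMD3.1 with STAR (2.5.2), restricted to unique matches and freed of duplicates with Picard (2.5), after which Cufflinks (2.2.1) gave the deposited FPKM per Ensembl gene, per the labels and the study's methods. The deposited tables hold no fragment counts, so the depth behind a value is unknown and counting error could not be given. Values come from the unfiltered table, and the filtered one was not used here. The study's own comparison ran on counts, with a collection batch as a term. Those counts and the batch of each COC were not analysed here.

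Detection required over 0.5 FPKM in 8 or more of the 16 libraries of a sample type. Each pair of sample types was fitted in limma 3.58.1 (R 4.3.3, eBayes without trend) over 32 libraries on log2(FPKM + 1), at a Benjamini-Hochberg FDR under 0.01, after the script had been tested on simulated data. Ratios were compared with exact two-sided sign-flip permutations, and correlations with 100000 permutations, or all permutations within 8 COCs, both at p under 0.05 (adjusted over the 6 relations for correlations), in scipy 1.17.1 under Python 3.11.15 (numpy 2.4.6, pandas 2.3.3), and figures were drawn with matplotlib 3.10.9. Libraries with the same number are from 1 COC, so they are paired, and their deviations from the means of their sample types had a mean correlation of 0.0102 (oocyte and outerCC), 0.0480 (oocyte and innerCC) and 0.154 (innerCC and outerCC). A fit with the COC number as a block is therefore among the alternatives.

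Genes are named as the 4 members, every listed pathway gene with a matched identifier, and the 3 genes of highest r with each member. Symbols were matched from the study's supplementary lists, which pair 33.5% of the tested genes with one. These lists hold genes specific to a sample type and ligand-receptor pairs, so matching depended on expression in these data. The members and lists were chosen with earlier results of these data known, and the 2 sets of COCs were seen in the data. Alternatives covered the pseudocount, the genes tested, the block, 75th percentile scaling, the number of genes as a covariate, eBayes with trend, each set of COCs and leaving out each COC. Sequences of the 4 genes and their coordinates were not analysed here.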

Additional observations from a re-analysis of the deposited data

How the results depend on the processing

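No interval for counting error could be computed from FPKM, so low levels such as ACVR1 in innerCCs carry only the spread between COCs. INHA, INHBA and ACVR1 kept direction and call between oocytes and outerCCs under every alternative run. Only with 75th percentile scaling was ACVR2B called there (-0.95, limma adjusted p = 0.00956), and this scaling was not run on the comparisons with all 16 innerCC libraries, in some of which that percentile was 0. Between oocytes and innerCCs the calls of INHA (-2.15) and INHBA (-2.14) were lost within COCs 176 to 184, when 21 of the 12428 genes tested were called lower in oocytes.

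Between innerCCs and outerCCs the calls of INHA, INHBA and ACVR1 held with a pseudocount of 0.1, every gene above 0, the replicate block, eBayes with trend and within COCs 176 to 184. The number of genes as a covariate turned INHA to 0.31 and INHBA to 0.73 and took the call of ACVR1 (-0.18). Within COCs 185 to 192 INHA (-1.20), INHBA (-0.40) and ACVR1 (-0.66) lost their calls, when limma called 190 of the 12428 genes tested. With the COC number as a replicate block in the same COCs they were not called either (limma adjusted p = 0.0207, 0.251 and 0.0846), and with scaling they were -0.18, 0.61 and -0.16. With the block limma called 0 of all genes tested, and with scaling also 0. Leaving out 1 COC gave -3.17 to -2.51 for INHBA, and the call was lost without COC 177, 179, 181 or 183. For ACVR2B it gave -1.15 to -0.74, called without COC 187 (limma adjusted p = 0.00354), and a pseudocount of 0.1 gave -2.11 with a call (limma adjusted p = 0.00667). ACVR2B, called in none of the 3 comparisons, changed sign between oocytes and outerCCs within COCs 185 to 192 (0.17, with and without the replicate block), between oocytes and innerCCs with the covariate (-0.24) or with scaling in COCs 185 to 192 (-0.70), and between innerCCs and outerCCs with that scaling (0.46). The cause was not tested.

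The log2 ratio of INHA to INHBA had a p under 0.05 within COCs 185 to 192 (-0.80) and 185 to 191 (-0.47), not over all COCs. It was -1.05 over the 16 with a pseudocount of 0.1 (exact sign-flip permutation p = 0.0909). The correlation of ACVR1 with ACVR2B had an adjusted p under 0.05 within COCs 185 to 192 alone (r = 0.825), with rho at an adjusted p of 0.137, and those of INHA and INHBA with ACVR2B, past no threshold, changed sign there (0.0526 and 0.33). Of the other pathway genes, those lower in oocytes than in innerCCs went from 2 to 1 with the replicate block, and to 1 without COC 191. Over all genes tested this number went from 563 to 553 and to 439. The other pathway genes lower in innerCCs than in outerCCs went from 14 to 0 within COCs 185 to 192, when all such genes went from 9620 to 190. Over all 16 COCs the block changed no call of the 4 genes. It took the other pathway genes higher in oocytes than in outerCCs from 16 to 15, when all such genes went from 5394 to 5392. Settings beyond those planned, such as the block or scaling within COCs 185 to 192, were chosen after seeing the data. Counts of genes left aside, 324 of 355 values under an alternative kept their direction and their side of the threshold, and 10 changed sign. Another 15 fell short of a threshold passed in the main setting, and 6 passed one not passed there. Many of the 355 came from leaving out 1 COC, which keeps most libraries of the main fit. A gene called in neither fit also counts as kept, so the total is no measure of robustness.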
